A study of Caenorhabditis elegans with 2 samples.

Results

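The 336 nuclear tRNA genes on the 5 autosomes of Caenorhabditis elegans were examined for calls of the zinc finger protein SDZ-12. They are all genes of the tRNA biotype in Ensembl release 115 (WBcel235) outside the X chromosome, of 612 nuclear tRNA genes in all, and the 276 on X served for comparison. For each gene the strongest call with its summit within 200 bp of the gene body was taken from each of 4 deposited lists. A gene with such a call in a list is named a called gene of that list. The rule for members uses the annotation and no signal value.

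The study was an anti-GFP chromatin immunoprecipitation with sequencing of 1 group of 2 biological replicates, with no second condition. Strain OP670 is an unc-119(tm4063) mutant with the integrated array wgIs670, which holds the fusion sdz-12::TY1::EGFP::3xFLAG and an unc-119(+) rescue gene. Whole worms of both sexes were collected as L4 larvae aged 71 hours after bleaching and starvation at L1, and chromatin was sonicated to 200 to 800 bp. Both replicates carry the same array, no strain without the tag was analysed here, and whole larvae mix all tissues. Nothing in the labels limits the protein to a tissue, and the calls do not show in which cells it lay on DNA.

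Nuclear tRNA genes are transcribed by RNA polymerase III from promoters inside the gene. The factor TFIIIC binds an A box and a B box in the gene body and places TFIIIB just upstream of the start, which recruits the polymerase, and a run of T downstream ends the transcript. Many tRNA genes exist as identical copies at scattered places, in introns of protein-coding genes or between genes. Transcription itself was not measured here.

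The sequences below show the 3 strongest calls at intergenic autosomal tRNA genes (F57F5.t1, the pair T23F1.t1 and T23F1.t2, and T03E6.t1). They also show identical copies with and without a call, and a called gene without a B box match. Each runs 5' to 3' on the strand of the tRNA, with 30 bp upstream of the gene and 20 bp downstream, and was read from the RefSeq copy of WBcel235. Capitals mark, in order, the A box where its consensus matched, the B box (GTTCNANNC) and the first downstream run of at least 4 T.
F57F5.t1: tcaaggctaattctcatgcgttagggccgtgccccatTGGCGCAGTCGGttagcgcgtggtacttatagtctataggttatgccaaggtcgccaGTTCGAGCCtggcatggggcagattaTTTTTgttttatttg
T23F1.t1: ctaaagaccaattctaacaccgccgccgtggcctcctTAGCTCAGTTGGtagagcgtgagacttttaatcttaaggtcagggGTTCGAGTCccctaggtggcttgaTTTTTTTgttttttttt
T23F1.t2: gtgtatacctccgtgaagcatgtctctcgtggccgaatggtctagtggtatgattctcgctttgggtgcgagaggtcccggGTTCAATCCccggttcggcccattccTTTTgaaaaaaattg
T03E6.t1: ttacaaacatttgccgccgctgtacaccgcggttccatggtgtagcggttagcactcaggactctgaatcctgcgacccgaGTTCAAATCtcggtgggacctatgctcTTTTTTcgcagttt
F08G5.t3: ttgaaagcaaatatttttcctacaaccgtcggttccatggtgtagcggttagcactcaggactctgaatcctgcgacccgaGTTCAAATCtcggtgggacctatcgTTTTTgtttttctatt
Y4C6B.t1: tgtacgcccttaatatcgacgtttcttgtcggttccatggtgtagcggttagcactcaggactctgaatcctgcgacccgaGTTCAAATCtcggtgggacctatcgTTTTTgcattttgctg
Y69A2AR.t2: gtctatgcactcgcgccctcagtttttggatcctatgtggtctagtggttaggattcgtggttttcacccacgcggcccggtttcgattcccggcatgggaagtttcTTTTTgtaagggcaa
The stretches lie at V:12002146-12002280 (plus strand, tRNA-Ile), V:15465056-15465178 (plus, tRNA-Lys), V:15465205-15465326 (minus, tRNA-Pro), V:16592217-16592338 (minus, tRNA-Gln), IV:12416922-12417043 (minus, tRNA-Gln), IV:5334682-5334803 (plus, tRNA-Gln) and IV:2639789-2639910 (minus, tRNA-Glu). The 3 glutamine genes are identical over all 72 bases of the gene. Their flanks differ. T03E6.t1 and F08G5.t3 share 12 of the 30 upstream bases, T03E6.t1 and Y4C6B.t1 share 9, and F08G5.t3 and Y4C6B.t1 share 10.

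These identical genes had different calls. T03E6.t1, 266 bp from the 5' end of the chemoreceptor gene srh-269, had an optimal call of signal 230 at rank 102 of 665. In replicate 1 it ranked 154 of 30000 with a signal of 110, and in replicate 2 it ranked 111 with a signal of 112. F08G5.t3, in an intron of F08G5.3, had an optimal call of signal 144 at rank 531, with replicate ranks of 649 and 437. Y4C6B.t1, in an intron of Y4C6B.3, had no pooled or optimal call, a replicate 1 call at rank 2048 (signal 60.1) and none in replicate 2. T03E6.t1 was thus high in both replicates, F08G5.t3 lower in both, and Y4C6B.t1 found in replicate 1 alone. F08G5.t3, Y4C6B.t1 and Y69A2AR.t2 were picked for display after their values were seen.

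The optimal list, which the authors derived from the replicate and pooled lists by the irreproducible discovery rate, holds 665 calls, and these are the strongest 665 of the pooled list. The replicate and pooled lists hold 30000 calls each, weak ones included. Read depth is unknown, as no read counts were used. Each signal is the authors' own value per call, and signals were compared within a list and replicates by rank. The scaling of the signal, the peak caller and the threshold of the optimal list are not given in the sources used here.

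An optimal call lay at 67 of the 336 autosomal tRNA genes, or 19.9% (95% Wilson interval 16 to 24.5), through 63 distinct summits. The background was low, with a summit in 0.307% of 174899 autosomal windows of 472 bp, the reach around a gene of median length. Windows of that length at the 5' ends of 17242 autosomal protein-coding genes held one in 0.69%. In the strongest 665 calls of replicate 1, 57 tRNA genes were called (17%, 13.3 to 21.3), against 0.314% of windows and 0.638% of coding 5' ends. In the strongest 665 of replicate 2, 60 were called (17.9%, 14.1 to 22.3), against 0.32% and 0.69%. Each library alone therefore showed a share far above that of windows or coding 5' ends, and close to that of the optimal list. All such intervals cover counting error over genes only, and the genes are not replicates. No test across samples is possible with 1 group.

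Extending the pooled list added more tRNA genes. Among the 100 strongest pooled calls 8 autosomal tRNA genes (2.38%, against 0.0492% of windows) were reached, and among the 1000 strongest 88 (26.2%, against 0.469% of windows). With the 5000 strongest it was 152 (45.2%, 40 to 50.6), against 2.38% of windows. Over all 30000 pooled calls it was 224 (66.7%, 61.5 to 71.5), against 13.7%. The full replicate 1 list reached 217 genes (64.6%), against 13.6% of windows, and the full replicate 2 list 215 (64%), against 13.7%. The excess over windows was thus larger in ratio among the 1000 strongest calls than in the longer lists. A share has an upper bound, so the ratio has a lower ceiling where more windows hold a summit. Its fall is therefore partly fixed in advance. No call was found at 112 tRNA genes even in the full pooled list. On X, 4.71% of tRNA genes were reached by the 100 strongest calls, 26.4% (21.6 to 32) by 665, 46% by 5000 and 66.3% by 30000, so the autosomal and X shares met as the list grew longer. The difference between them was not tested.

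**Figure D1:**
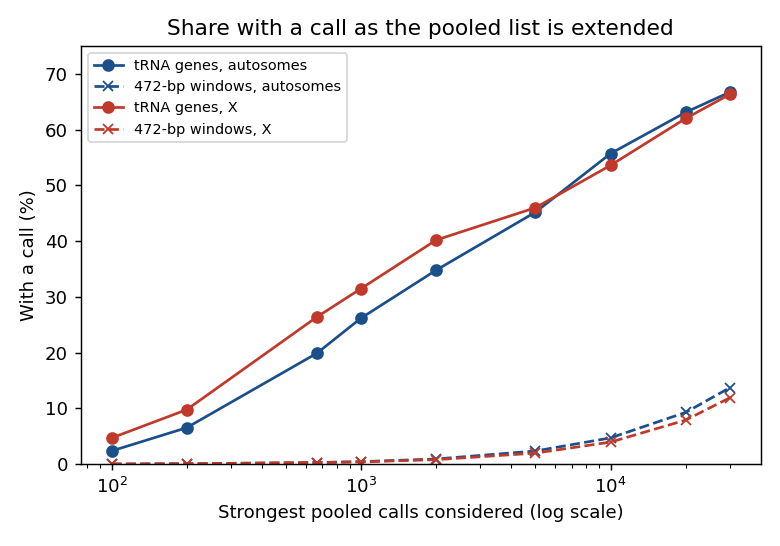
Percentage of tRNA genes (circles) and of 472-bp windows (crosses) with a summit, as more of the strongest pooled calls are considered (log scale), for autosomes (blue) and X (red). Autosomal tRNA genes rise from 2.38% at 100 calls to 66.7% at 30000, above the 13.7% of windows.

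At called genes the optimal signal ran from 136 to 302 with a median of 170, beside 136 to 538 and a median of 164 over the whole list. In the pooled list the 224 called genes ran from 48.4 to 302, median 109, beside a list median of 64.2. In replicate 1 the range was 27.8 to 165, median 55.9, beside a list median of 36.6. In replicate 2 it was 25.7 to 127, median 55.4, beside 33.7. The tRNA genes so lay in the upper part of each long list, whereas inside the optimal list they were near its middle.

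The autosomes had overlapping shares. An optimal call lay at 12 of 66 tRNA genes on chromosome I (18.2%, 10.7 to 29.1), 13 of 57 on II (22.8%, 13.8 to 35.2) and 12 of 64 on III (18.8%, 11.1 to 30). It lay at 18 of 71 on IV (25.4%, 16.7 to 36.6) and 12 of 78 on V (15.4%, 9.03 to 25). Every pair of intervals overlaps. The order was also not the same in the replicates, where V had 16.7% in replicate 1 and 12.8% in replicate 2, I had 13.6% and 19.7%, and IV had 21.1% in both. The median optimal signal of called genes was 193 on I, 156 on II, 169 on III, 165 on IV and 187 on V.

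The strongest call at an autosomal tRNA gene lay at C37A2.t1. This is a tRNA-Cys gene at I:6781803-6781874 (plus strand, WBcel235) in an intron of cye-1, the cyclin E gene, on the same strand. Its optimal signal was 302 at rank 32, and it ranked 27 in replicate 1 (signal 165) and 81 in replicate 2 (signal 118). An offset is the distance of the summit from the tRNA 5' end, negative upstream. For C37A2.t1 it was -16 bp in the optimal list, -18 bp in replicate 1 and -17 bp in replicate 2, so the libraries placed the summit alike, just before the gene.

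F57F5.t1, an intron-containing tRNA-Ile gene at V:12002176-12002260 with no identical copy, stood 379 bp from gcy-33, which encodes a guanylyl cyclase. Its optimal signal was 276 at rank 47, with ranks of 35 in replicate 1 (signal 156) and 78 in replicate 2 (signal 120). The optimal summit was at the first base of the gene (offset 0). T23F1.t1 (tRNA-Lys) and T23F1.t2 (tRNA-Pro), 67 bp apart on opposite strands and ending towards each other, shared the call of signal 256 at rank 63. It ranked 68 in replicate 1 (signal 133) and 58 in replicate 2 (signal 127). The shared summit lay between the genes, at an offset of 75 bp from T23F1.t1 and 135 bp from T23F1.t2, so it cannot be given to either alone. All of these calls were among the 100 strongest in both replicates.

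The remaining genes of the 12 strongest included intronic and intergenic ones of several amino acids. F52C9.t1 (tRNA-Thr, III:5305905-5305976, plus) in an intron of F52C9.5 had an optimal signal of 250, with replicate ranks of 59 and 92. Its summit lay at 93 bp in replicate 1 but at -12 bp in replicate 2. ZC455.t1 (tRNA-Ser, V:12780386-12780467, minus), in an intron of ZC455.1 on the opposite strand, had 246, ranks of 102 and 84, and offsets of 2 bp and 16 bp. The replicate summits thus lay on either side of F52C9.t1 but both inside ZC455.t1. T04D3.t4 (tRNA-Thr), in an intron of T04D3.8, had an optimal signal of 245 and ranks of 116 and 97. F14B4.t1 (tRNA-Arg), in an intron of F14B4.1, had 231 and ranks of 149 and 147. B0523.t1 (tRNA-Trp), in an intron of the flightless homolog fli-1, had 222 and ranks of 155 and 99. C15C6.t1, a tRNA-Arg gene of unique sequence 3629 bp from any coding 5' end, had 220 and ranks of 157 and 110. C04A2.t1 (tRNA-Leu, II:6853204-6853285, plus), in an intron of C04A2.15, had 218 and ranks of 233 and 83, the strongest call at a tRNA gene of II. On IV the strongest was Y7A9D.t3 (tRNA-Val), with 194 and ranks of 297 and 186. All of these were within the strongest 665 of both replicates.

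Those genes were picked by their pooled signal, which both replicates feed, so their replicate ranks are no separate check. Over all members, a call in both full lists was found at 180 genes, in replicate 1 alone at 37, in replicate 2 alone at 35 and in neither at 84. Over the 180 the ranks had a Spearman correlation of 0.598, and log2 signals a Pearson correlation of 0.607, as descriptions across genes that share libraries and in part sequence. Replicate summits lay within 50 bp of each other at 106 of the 180, with a median distance of 33.5 bp. Among the 67 genes with an optimal call, 63 had a call in both replicates, and 36 were in the strongest 665 of both. A further 15 were so in replicate 1 alone, 12 in replicate 2 alone and 4 in neither. For genes with an optimal call the Spearman correlation of replicate ranks was 0.245. Those genes were picked by pooled signal, which narrows the range of ranks, so this value is not comparable with 0.598. The 4 called genes without a call in both replicates, Y51H4A.t4, F44A2.t1, Y43D4A.t1 and Y37A1B.t1, named after their values were seen, had no replicate 2 call within 200 bp. Their replicate 1 ranks were 244, 341, 451 and 318.

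The widest rank differences under an optimal call were at B0350.t1 (tRNA-Lys, rank 198 in replicate 1 and 7848 in replicate 2) and at the pair W09G10.t3 (tRNA-Thr) and W09G10.t2 (tRNA-Lys). That pair shared 1 call, of rank 156 in replicate 1 and 7088 in replicate 2, on the upstream side of the C-type lectin gene clec-126. The optimal signals were modest, 154 and 152. Other genes were high in 1 replicate and had no optimal call. W09D6.t2 (tRNA-Pro) ranked 177 in replicate 1 and 25962 in replicate 2, Y105C5B.t4 (tRNA-Asp) 454 and 13655, and Y39B6A.t9 (tRNA-Phe) 191 with no call in replicate 2. In the other direction K03B8.t1 (tRNA-Val) ranked 6703 and 293, F08G5.t1 (tRNA-Arg) 4701 and 342, and Y7A9D.t1 (tRNA-His) 762 and 347. For such genes the replicates did not give the same picture.

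**Figure D2:**
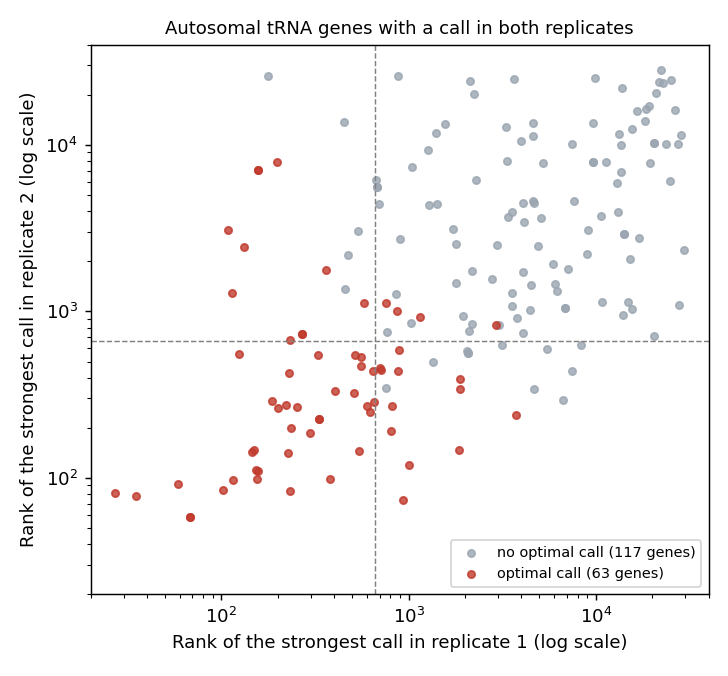
Rank of the strongest call in replicate 1 (x) and replicate 2 (y), both on log scales, for the 180 autosomal tRNA genes with a call in both; red points have an optimal call (63 genes), grey points do not (117), and dashed lines mark rank 665. The strongest genes lie low on both axes, while single genes such as B0350.t1 lie far from the diagonal.

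Over the 67 genes with an optimal call, through 63 distinct summits, offsets ran from -122 to 255 bp. The median was 33 bp with quartiles of -13.5 and 85 bp, and 55 of the 67 offsets lay from -30 to 120 bp. The summit lay upstream of 23 genes, inside 25 (37.3%, 26.7 to 49.3) and downstream of 19. Medians were 36 bp in the strongest calls of replicate 1, 35.5 bp in those of replicate 2 and 35 bp at the 224 genes with a pooled call. The window is symmetric about the gene body, so summits spread evenly over it would also have a median near the middle of a gene of 72 bp. The median alone therefore does not show where summits gather. Most single summits were outside the gene, yet a body of 72 bp is a small part of the 472 bp searched. Replicate summits lay a median of 33.5 bp apart over the 180 genes with a call in both. Placement inside or outside a gene of this length is therefore coarse. In bins of 25 bp, the optimal summit lay just upstream of the 5' end at 14 genes and from 100 to 124 bp at 11. Between them, 10 genes had it at 25 to 49 bp. The pooled list, with more genes, had its fullest bin inside the gene. On X the optimal median was 42 bp and the summit was in the body at 50.7% (39.5 to 61.8) of called genes. That interval overlaps the autosomal one.

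**Figure D3:**
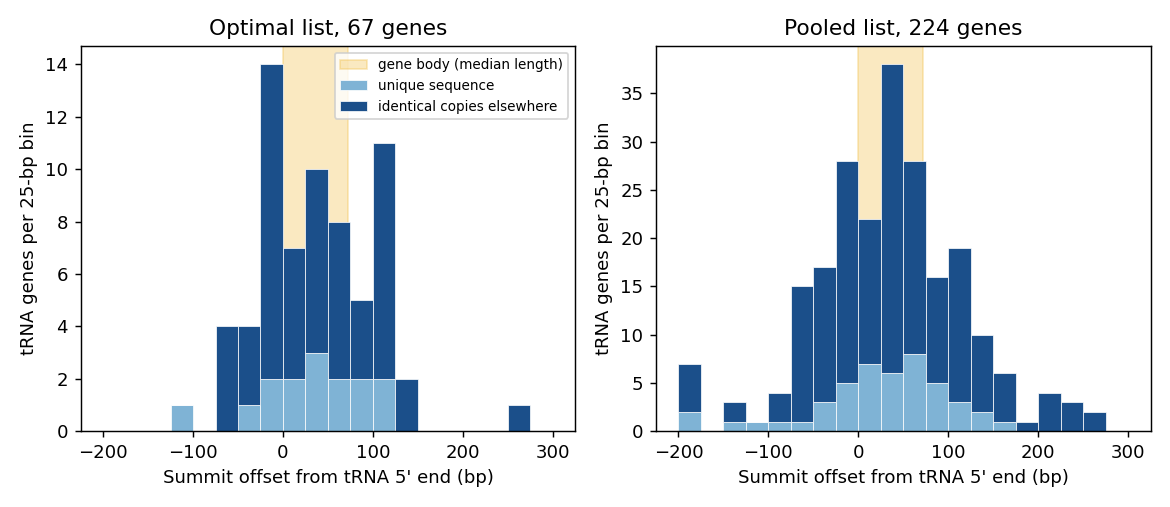
Number of autosomal tRNA genes per 25-bp bin of summit offset from the tRNA 5' end (bp, positive downstream), in the optimal list (left, 67 genes) and the pooled list (right, 224 genes), stacked by unique sequence (light) and identical copies (dark); the shaded band is a gene body of the median length, 72 bp. The optimal counts have a bin of 14 just before the 5' end and 1 of 11 past the 3' end.

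Few summits lay close to the limit of 200 bp. Just inside it was T04D3.t2 (tRNA-Gly), whose summit lay 184 bp from the gene body with rank 415. The next gene inward that relied on a distant summit was F42A10.t2 (tRNA-Ser), at 122 bp. That summit, at rank 239, is also the call of F42A10.t1, another tRNA-Ser gene. A second, weaker optimal call lay 191 bp from B0212.t1 (tRNA-Pro), which had another at an offset of 13 bp. Genes outside it included F08G5.t2 at 211 bp and K11H3.t1 at 357 bp. Both stand beside called tRNA genes, F08G5.t3 and K11H3.t2, and the summits are the same ones.

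The B box letters were common to nearly all members. The letters GTTCNANNC were found on the tRNA strand of 319 of the 336 genes (94.9%), with the first base at position 48 to 102 and a median of 53. On either strand they occur in 2.4% of 1146576 autosomal windows of 72 bp. Of genes with the match 64 had an optimal call (20.1%, 16 to 24.8), and of the 17 without it 3 did (17.6%, 6.19 to 41). Those 3 were T15B12.t1 (tRNA-Met, signal 215), F14B4.t2 (tRNA-Pro, 141) and Y69A2AR.t2 (tRNA-Glu, 181), so a call was found with and without these letters. Y69A2AR.t2, in an intron of the spindle checkpoint gene mdf-2, ranked 405 in replicate 1 and 332 in replicate 2. Its summit lay at an offset of 46 bp.

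Measured from the centre of the B box, the optimal summit lay at a median of -23 bp, within 25 bp of it at 16 of 64 genes and within 50 bp at 28. An A box consensus matched 78 genes (23.2%), against 1.63% of windows on either strand, and 13 of those 78 were called (16.7%, 10 to 26.5). A downstream run of at least 4 T was present at 329 genes, of which 65 were called (19.8%), and absent at 7, of which 2 were called. In the optimal list the share of called genes with the B box or the T run lay inside the interval of genes without it (8.22 to 64.1% without the T run). In the full lists this did not always hold. With and without the B box it was 65.8% and 41.2% (21.6 to 64) in replicate 1, above the interval. In replicate 2 it was 65.2% and 41.2% (21.6 to 64), also above. In the full pooled list it was 67.4% and 52.9% (31 to 73.8), inside. For the T run, full replicate 2 gave 64.7% and 28.6% (8.22 to 64.1). These differences were not tested. A match is a description of letters, and a missing match says only that those letters are not in the window.

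The 336 genes have 137 distinct sequences. A sequence found nowhere else among nuclear tRNA genes belonged to 86 genes, and 250 had at least 1 identical copy, 223 of them with a copy on X. An optimal call lay at 15 of the 86 unique genes (17.4%, 10.9 to 26.8) and at 52 of the 250 copies (20.8%, 16.2 to 26.3). The share was 23% (15.4 to 32.9) in families of 2 to 9 copies and 19.6% (14.3 to 26.4) in families of at least 10. Replicate 1 gave 14% of unique genes and 18% of copies, and replicate 2 gave 12.8% and 19.6%. Genes without an identical copy had the lower share in each of these lists. It lay inside the interval of the copies in the optimal list and replicate 1, but below it in replicate 2 (15.2 to 25). In the 5000 strongest pooled calls the intervals parted, with 31.4% (22.6 to 41.8) of unique genes and 50% (43.8 to 56.2) of copies. On X they parted in the optimal list, with 12.3% (6.08 to 23.2) and 30.1% (24.4 to 36.5). In the full autosomal pooled list they parted too, with 53.5% (43 to 63.7) of unique genes and 71.2% (65.3 to 76.5) of copies. How reads that match several copies were treated before calling is not given in the sources used here, and its part in these shares was not tested.

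The summit lay in the body at 7 of 15 called unique genes (46.7%, 24.8 to 69.9) and at 18 of 52 called copies (34.6%, 23.2 to 48.2). The medians were 34 and 33 bp. In the pooled list the shares in the body were 47.8% (34.1 to 61.9) and 36.5% (29.8 to 43.8). In the full replicate 1 list the order was the other way, 27.9% of unique genes and 37.9% of copies. The medians of the copies differed by family size, -1.5 bp in families of 2 to 9 and 60 bp in those of at least 10. In the strongest calls of replicate 1 these were -13 and 66 bp, and in those of replicate 2 they were -1 and 57 bp. The smaller families thus had summits nearer the 5' end in the strongest calls of both libraries, a split by size that was not tested. The optimal quartiles overlap, -20.5 to 33 bp and -12.5 to 107.2 bp. In the full lists the medians were closer, 15 and 39 bp in replicate 1 and 17.5 and 37 bp in replicate 2. The median optimal signal was 170 in both classes.

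Of 43 sequences with at least 2 autosomal genes, 16 had no optimal call at any autosomal copy, 25 at some and 2 at all. Over all 250 copies 52 were called (20.8%), and at such a share few whole families would be called in any case. In the 25 mixed families 44 of 180 genes were called, a count partly fixed because such families hold called and uncalled genes by definition. Whether copies were called together more or less often than other genes was not tested. The family of 18 autosomal tRNA-Gly genes had 3 called, with pooled signals from 59.7 at C12C8.t2 to 166 at Y82E9BR.t1 and 4 genes without a pooled call. The 15 tRNA-Lys genes had 5 called, and the 11 with a pooled call ran from 74.0 at C17D12.t2 to 206 at M01E5.t1. The 11 tRNA-Asp genes had 3 called, and the 10 with a pooled call ran from 52.7 at W06G6.t2 to 191 at F41A4.t1. F41A4.t1 itself ranked 928 in replicate 1 and 74 in replicate 2. Among copies with a pooled call, the weakest ranked 18429, 9443 and 24862 in the pooled list and the strongest 324, 142 and 188. Genes of the same sequence so had ranks far apart.

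The 13 tRNA-Asn genes had 2 called. The 7 with a pooled call ran from 86.6 at K02E2.t1 to 154 at R04F11.t1, which lies in an intron of the potassium channel gene twk-13. The 11 tRNA-Pro genes had 2 called. The 7 with a pooled call ran from 56.5 at Y71H2AM.t1 to the 256 of the call T23F1.t2 shares. A family of 8 tRNA-Glu genes had none called and 5 with a pooled call. Over all 336 genes, none was identical to another once 50 bp on each side were included, so every copy has flanks of its own.

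**Figure D4:**
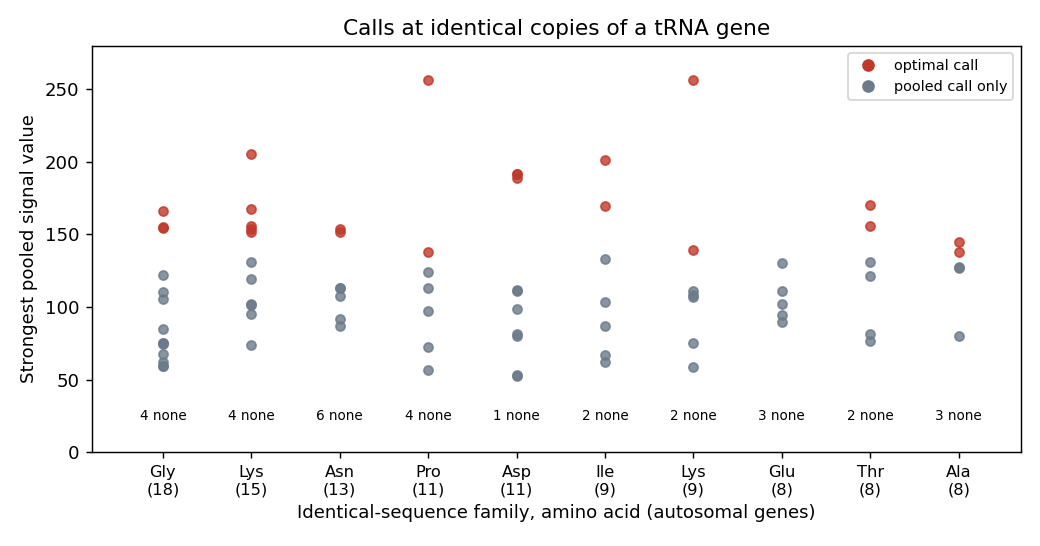
Strongest pooled signal value at each autosomal copy of the 10 largest identical-sequence families, labelled by amino acid and number of autosomal genes; red points have an optimal call, grey points a pooled call only, and the number of genes with no pooled call is printed above the axis. Within the tRNA-Lys family of 15 genes the values run from 74.0 to 206.

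Genes in introns and between genes had overlapping shares of calls. Whole inside an intron of a protein-coding gene lay 192 members in 156 host genes, of which 36 had an optimal call (18.8%, 13.9 to 24.9). Overlapping no protein-coding gene were 139, of which 30 were called (21.6%, 15.6 to 29.1) through 26 summits, and 5 overlapped one in another way, with 1 called. Replicate 1 gave 14.6% of intronic and 20.1% of intergenic genes, and replicate 2 gave 18.8% and 16.5%. The sign of the difference thus changed between the replicates. On the same strand as the host 22 of 115 were called (19.1%, 13 to 27.3), and on the opposite strand 14 of 77 (18.2%, 11.2 to 28.2). Replicate 1 alone gave 12.2% on the same strand, and replicate 2 19.1%.

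Summits at intronic genes had a median offset of 17.5 bp with 44.4% (29.5 to 60.4) in the body. At intergenic genes the median was 66.5 bp with 26.7% (14.2 to 44.4) in the body. The summit lay downstream at 13 of the 30 genes. The pooled medians were closer, 33 and 41.5 bp. The intervals overlap in both lists.

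Most tRNA genes, called or not, were more than 500 bp from protein-coding 5' ends. This held for 267 of all 336 and for 49 of the 67 called ones. The nearest coding 5' end lay at a median of 1361 bp from called genes and 1611 bp from the rest. At 19 of the 67 called genes (28.4%) the optimal summit fell from 1000 bp upstream to 200 bp downstream of a coding 5' end. So did 72 of the 336 tRNA 5' ends themselves (21.4%). At 65 of the 67 the summit was closer to the tRNA 5' end than to any coding one, and 1 lay within 200 bp of an snoRNA or snRNA gene. Since summits were taken within 200 bp of a tRNA gene and coding 5' ends are mostly farther off, the choice of calls nearly fixes that count.

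Within 500 bp of a coding 5' end stood 69 tRNA genes, of which 18 were called (26.1%, 17.2 to 37.5), against 49 of 267 farther off (18.4%, 14.2 to 23.4). Restricted to intergenic genes, a split made after the data were seen, it was 12 of 33 near (36.4%, 22.2 to 53.4) and 18 of 106 far (17%, 11 to 25.3). Replicate 1 gave 33.3% and 16%, and replicate 2 gave 30.3% and 12.3%. The near share was higher in the strongest 665 calls of both libraries, yet its interval overlaps the far one and the difference was not tested. Over all members the shares were closer in longer lists, 46.4% near and 44.9% far in the 5000 strongest pooled calls. In the full pooled list both were 66.7%. For intergenic genes the values were 54.5% near and 44.3% far, then 69.7% and 63.2%. Coding genes near called tRNA genes included gcy-33, srh-269 and clec-126, named above. Of the 62 members within 500 bp of another tRNA gene 10 were called (16.1%, 9 to 27.2, through 6 summits), and of the 274 others 57 (20.8%, 16.4 to 26).

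By amino acid, tRNA-Arg genes had the highest share, 7 of 17 (41.2%, 21.6 to 64). The strongest calls of each replicate also held 7, but not all the same genes. F08G5.t1 was among those of replicate 2 and had no optimal call. On X 6 of 27 tRNA-Arg genes had an optimal call. Next came tRNA-Cys with 2 of 6, then tRNA-Ala and tRNA-Ser with 6 of 21 each (tRNA-Ser through 5 summits). At a like share came tRNA-Lys with 7 of 28, tRNA-Ile with 4 of 16 and tRNA-Thr with 5 of 20. In the strongest calls of replicates 1 and 2 tRNA-Ala had only 3 and 2 genes (14.3% and 9.52%), below the 17% and 17.9% of all members. There tRNA-Ser had 5 in each. Among tRNA-Gly, the largest class, 6 of 35 were called, and among tRNA-Val 2 of 17. No optimal call lay at the 11 tRNA-Tyr genes, where a count of 0 still permits up to 27.3% (taken as 3 counts, and not as a Wilson limit), or at the 8 tRNA-Phe genes, where it permits up to 37.5%. On X 3 of 8 tRNA-Tyr and 3 of 6 tRNA-Phe genes were called. Pooled calls were present at 7 of the 11 tRNA-Tyr genes, with signals of 50.8 to 120. All 11 tRNA-Tyr genes have an intron in the tRNA, as do 4 tRNA-Leu and 2 tRNA-Ile genes, and 2 of these 17 were called. The amino acid classes are small and were set side by side with no test.

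Genes of the machinery that makes and uses tRNA had 1 call or none per list. A promoter summit, from 1000 bp upstream to 200 bp downstream of the 5' end, was found at 1 of 11 genes of RNA polymerase III subunits and 0 of 13 of TFIIIB, TFIIIC, SNAPc and their regulators. It was found at 1 of 19 genes of tRNA processing, export and modification and 1 of 32 of the aminoacyl-tRNA synthetases, which load amino acids on tRNA. Over all 19973 protein-coding genes the share was 1.61% (322 genes). The called members were rpac-19, a subunit shared by RNA polymerases I and III (signal 180, rank 244), elpc-4 of the Elongator complex (140, rank 597) and ears-2, a glutamyl-tRNA synthetase (307, rank 29). In replicates 1 and 2 rpac-19 ranked 142 and 755, elpc-4 ranked 925 and 1944, and ears-2 ranked 34 and 29. The elpc-4 summit lay at -951 bp from its 5' end, near the edge of the promoter window. Single genes per list give no more than these counts. Of 19 listed other genes thought to be read by RNA polymerase III, 9 matched the annotation. With the 200 bp reach used for tRNA genes, 1 of the 9 was called, beside 0.307% of autosomal windows. It was rpr-1, the RNA of RNase P, which trims tRNA precursors. Its signal of 399 at rank 8 was above that of any autosomal tRNA gene, with ranks of 24 in replicate 1 and 5 in replicate 2.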

How the data were processed

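The data are 4 lists of calls from 2 replicates of 1 group on assembly ce11, per the labels. Calls were made by the authors on each replicate and on the pooled reads, against a control, per the deposited text files. The authors' signal value per call is in column 7 and the deposited −log10 q-value in column 9. The signal ranked calls within a list, and the −log10 q-value only broke ties. The caller and its settings are not given in the sources used here, nor is the depth.

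The strongest call with its summit within 200 bp of each tRNA gene of Ensembl release 115 was taken from each list. Of the 336 genes 334 matched a RefSeq product, which gave the amino acid, and 22 mitochondrial tRNA genes are no members. Background windows of 472 bp tiled the autosomes. Intervals are 95% Wilson intervals. Python 3.11.15, NumPy 2.4.6, SciPy 1.17.1 and matplotlib 3.10.9 were used, and assignment was tested on simulated data. Named genes are the 12 strongest, the strongest per autosome, the 6 strongest intronic, the 3 strongest of each replicate without an optimal call, the 3 with the widest rank difference, the strongest and weakest copy of the 5 largest families, their coding host or neighbour, and called members of the pathway lists. The members and lists were chosen with earlier results of these data known.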

Additional observations from a re-analysis of the deposited data

How the results depend on the processing

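With a 100 bp or 500 bp reach, each summit given to its nearest tRNA gene, or other limits for a nearby coding 5' end, no share moved beyond its interval. Requiring the summit inside the gene body gave 7.44% of autosomal tRNA genes, 4.55% on chromosome I, 3.51% on II, 7.81% on III and 9.86% on IV. By class it gave 8.14% of unique genes, 7.2% of copies, 8.33% of intronic, 5.76% of intergenic, 5.8% of genes near a coding 5' end and 7.87% of far ones. The 332 strongest optimal calls gave 11.9% over the autosomes, 10.6% on I, 10.5% on II and 12.7% on IV. By class they gave 10.5% of unique genes, 12.4% of copies, 10.9% of intronic, 12.9% of intergenic, 14.5% of near and 11.2% of far genes. Both settings accept fewer calls by construction.

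With 1 replicate left out, the autosomal share ran from 17% to 17.9% and the median offset from 35.5 to 36 bp. For single named genes the call changed in 30 alternative values and did not in 187. Identity over 50 bp flanks left 0 genes with copies, so that class had no value. No paired analysis was possible because there is 1 group. Depth is unknown, so it cannot be said whether a gene without a call lacks signal.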
